A study of Homo sapiens with 6 samples.

Results

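The pausing and elongation factors of RNA polymerase II are the proteins that hold the polymerase shortly after it leaves a promoter, release it, and carry it through the gene body. The 37 genes described here were taken from a fixed list of symbols by their complex (NELF, DSIF, SPT6 and IWS1, FACT, P-TEFb, the 7SK complex, the super elongation complex, the PAF complex, TFIIS, Elongin and the CDK12 and CDK13 kinases), by a rule that uses no measured value. The list was nevertheless drawn up with earlier results of these data known. All 37 were found among the 58243 gene identifiers of the deposited count tables, and all 37 passed the filter on low counts, beside 23884 genes tested in all.

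RNA labelled with 4-thiouridine (4sU) was sequenced from A375 cells, a human melanoma line, to ask how newly made transcripts differ when the phosphatase PRL3 is present in excess. In 3 libraries (EV B1, B2 and B3) the cells carried an empty vector, and in 3 libraries (PRL3 B9, B10 and B11) they carried a plasmid for HA-tagged PRL3. Both lines were stable transfectants held in 100 µg/ml hygromycin with 10% serum, and both were pulsed with 500 µM 4sU for 20 min, so that the reads are enriched for RNA made during that time. Whether the libraries came from separate cultures, and whether each line was a pool or 1 clone, is not given in the sources used here, so p-values measure the spread between these libraries, which may be technical, and differences between the 2 lines other than PRL3 cannot be told apart from PRL3.

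Soon after initiation, DSIF and NELF bind the polymerase and hold it in a paused state. The kinase P-TEFb, made of CDK9 and a cyclin T, phosphorylates both factors and the polymerase tail, whereupon NELF leaves and DSIF turns into an elongation factor. Much of P-TEFb is kept inactive on the 7SK RNA by HEXIM proteins, and the super elongation complex brings the active kinase to genes. During elongation, FACT, SPT6 and the PAF complex handle nucleosomes, TFIIS and Elongin restart or speed stalled polymerase, and CDK12 and CDK13 with cyclin K keep up tail phosphorylation over long genes.

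Gene counts per library ran from 36532207 to 57952035. PTP4A3, the gene of PRL3, had 161 to 279 normalized counts in EV and 22065 to 28767 in PRL3 (log2 fold change 6.80, SE 0.25). Of 8 melanocyte lineage markers, MLANA, TYR, TYRP1 and DCT had 20 counts or fewer in every library while SOX10 had 9882 or more, and the 8 summed to 286 to 359 TPM (a level per kilobase of exon, formed over totals that differ between the groups) in EV and 182 to 302 in PRL3. MITF went up, with each PRL3 library above each EV library, but did not pass the test (log2 fold change 0.36, SE 0.15, edgeR adjusted p = 0.0738). PMEL did not pass either (log2 fold change -0.33, SE 0.54, edgeR adjusted p = 0.664). SOX10 (log2 fold change -0.85, SE 0.18, edgeR adjusted p = 0.00213) and S100B (log2 fold change -1.38, SE 0.16, edgeR adjusted p = 3.12e-05) were lower past the threshold. Of 12 markers of other cell types 5 were at 20 counts or fewer throughout, and their sum was 24.9 to 27.9 TPM in EV and 11.2 to 18.8 in PRL3, most of it KRT14 (23.6 to 26.2 TPM in EV), which was lower too (log2 fold change -1.31, SE 0.21, edgeR adjusted p = 0.000306). The part of these markers in the results was not tested. Uniquely aligned reads outside annotated exons made up 28.7% to 41.1% of each EV library and 62.8% to 69.1% of each PRL3 library, so a gene's level depends on which reads it is measured against. This share moved with the group beside every result below, and its part in them was not tested.

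Of the 37 genes, 15 were lower and 6 were higher in PRL3 (edgeR, adjusted p of 0.05 or less), and 16 did not pass the test. Calls in either direction took in 21 of the 37, beside a background of 42.7% of all tested genes and 46.8% of protein-coding ones. The share that was lower, 40.5%, stood beside 22.7% of all tested genes and 31.6% of the 14443 tested protein-coding genes. For the higher genes, the share of 16.2% stood beside 20.0% of all tested genes and 15.2% of protein-coding ones. Every listed gene of NELF, DSIF, FACT and TFIIS was lower, though the NELFA call was lost and its sign turned to 0.05 when libraries were scaled by library size alone. By that scaling NELFCD, SUPT16H and TCEA1 lost their calls too (edgeR adjusted p = 0.104, 0.179 and 0.16). Both cyclin T genes and the cyclin K gene were higher, calls that were lost against all uniquely aligned reads. In 16 members all PRL3 libraries were beneath all EV libraries (background 26.6% of all tested genes, 36.7% of protein-coding ones), and in 7 all PRL3 libraries were above (background 29.7% and 22.2%). With 3 libraries against 3 the exact two-sided permutation test cannot go below p = 0.1, which is the value of each of these 23 members.

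The median log2 fold change of the 37 members was -0.34, against 0.11 over all tested genes and -0.15 over protein-coding genes. Scaling set the zero point of these values. Calls and signs are against 0 as scaled here, so the medians are given beside them. Of the 37 members, 27 lay below the all-gene median of 0.11 and 22 below the protein-coding median of -0.15. In bulk RNA, a lower level in every cell and fewer cells with the transcript cannot be told apart. Values given by library below are normalized counts (counts brought to one effective library size, the mean over libraries), always in the order EV B1, B2, B3 and PRL3 B9, B10, B11.

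**Figure D1:**
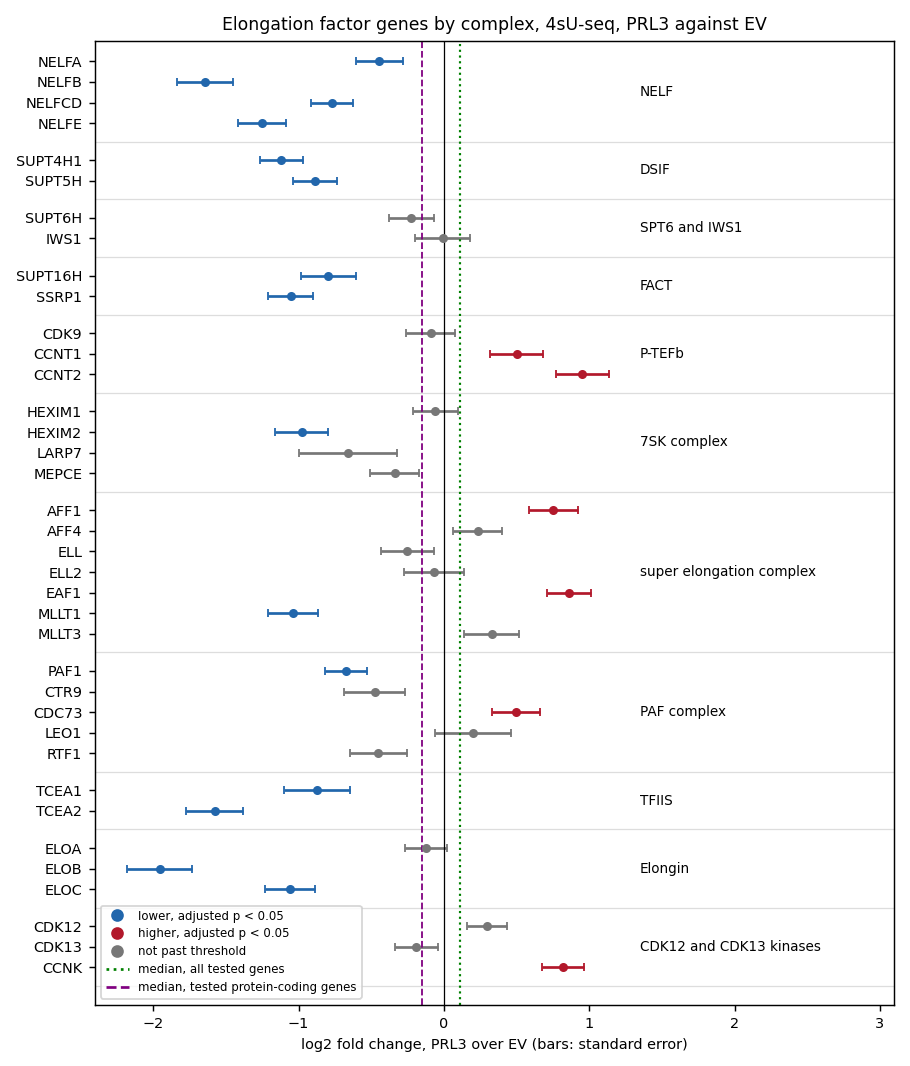
Log2 fold change (PRL3 over EV, horizontal axis) for the 37 members, grouped by complex, with an SE worked back from the test statistic. Blue is lower, red higher and gray not past an adjusted p of 0.05. Lines mark the medians of all tested genes (0.11) and protein-coding genes (-0.15). The NELF, DSIF, FACT and TFIIS genes lie below 0 (NELFA at 0.05 when scaled by library size alone), and CCNT2 at 0.95 and ELOB at -1.95 mark the ends of the range.

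Promoter sequences are shown for the members with the most negative fold changes, ELOB and NELFB, for the scaffold gene AFF1, which was higher, and for HEXIM1, whose fold change was near 0. They come from RefSeq (GRCh38.p14) and run 5′ to 3′ from 250 bases before the start, cut where the gene's own exon begins. Capitals mark the GC box GGGCGG, the CCAAT box CCAAT and the TATA box TATAAA on either strand.
ELOB (chr16:2777290-2777530, strand -): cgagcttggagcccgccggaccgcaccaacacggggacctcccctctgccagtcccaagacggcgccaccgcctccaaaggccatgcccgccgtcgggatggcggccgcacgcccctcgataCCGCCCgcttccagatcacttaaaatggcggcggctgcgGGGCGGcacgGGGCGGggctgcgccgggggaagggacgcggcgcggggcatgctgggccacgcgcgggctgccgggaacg
NELFB (chr9:137255077-137255326, strand +): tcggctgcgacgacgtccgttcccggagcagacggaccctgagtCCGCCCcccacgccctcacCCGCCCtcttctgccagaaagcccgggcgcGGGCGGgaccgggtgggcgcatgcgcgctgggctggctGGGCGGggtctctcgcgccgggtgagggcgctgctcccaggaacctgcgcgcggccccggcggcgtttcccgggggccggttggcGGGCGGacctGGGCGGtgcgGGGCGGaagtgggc
AFF1 (chr4:86934761-86935001, strand +): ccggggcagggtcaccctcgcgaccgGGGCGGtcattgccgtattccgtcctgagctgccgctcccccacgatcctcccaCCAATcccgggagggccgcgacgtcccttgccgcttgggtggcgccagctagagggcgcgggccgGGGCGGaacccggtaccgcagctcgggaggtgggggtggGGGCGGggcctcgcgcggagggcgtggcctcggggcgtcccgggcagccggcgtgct
HEXIM1 (chr17:45148225-45148474, strand +): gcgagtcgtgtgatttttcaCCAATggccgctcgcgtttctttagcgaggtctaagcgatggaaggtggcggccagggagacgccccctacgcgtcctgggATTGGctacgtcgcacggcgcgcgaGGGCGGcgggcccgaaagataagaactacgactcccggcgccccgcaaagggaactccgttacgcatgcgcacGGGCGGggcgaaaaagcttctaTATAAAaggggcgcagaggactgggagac
The NELFB window held 7 GC boxes and no CCAAT box, the ELOB window 3 and none, and the AFF1 window 3 and 1. HEXIM1 had 2 of each and the sole TATA box among the matched members. Motifs were searched in the 250 bases before the start only. Of the 33 members with an entry in the RefSeq table, 26 had a GC box there in at least 1 window (42.6% of all 35114 windows). The ETS core CCGGAAG was found in 9 (8.52%), a CCAAT box in 13 (32.0%), the E-box CACGTG in 5 (6.35%) and a TATA box in 1 (10.7%). Members were counted by gene, which may have more than 1 window, and the percentages by single window. The 2 are unlike measures, and no share by gene was computed over all genes. With an entry there were 5 higher members, 13 lower members and 15 that did not pass the test. In that order, the GC box was in 5, 8 and 13 of them and the CCAAT box in 5, 3 and 5. The ETS core was in 2, 4 and 3, the E-box in 1, 2 and 2 and the TATA box in 0, 0 and 1. Whether any motif goes with the direction was not tested. Both strands were searched, none of the 5 motifs is part of another, and a match describes letters in the window and no bound site.

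NELF, the complex that holds polymerase at the pause, was lower in all of its subunit genes. NELFB (chromosome 9, 137255327 to 137273542, GRCh38), a core subunit of the complex, had 6568, 8688 and 5803 in EV and 1854, 2767 and 2112 in PRL3. All PRL3 libraries lay at less than the lowest EV library, and the gene stood at 32.0% of EV (log2 fold change -1.64, SE 0.20, edgeR adjusted p = 3.16e-05). NELFE, the RNA-binding subunit, had 4534, 5624 and 3896 in EV and 1890.3, 2134 and 1874 in PRL3. The PRL3 libraries were tightly grouped below EV at 42.0% of its level (log2 fold change -1.25, SE 0.17, edgeR adjusted p = 6.79e-05). NELFCD, the subunit made in 2 forms from alternative start codons, had 10442, 11385 and 9458 in EV and 6227, 6475 and 5645 in PRL3. It was again lower in each PRL3 library, at 58.7% of EV (log2 fold change -0.77, SE 0.15, edgeR adjusted p = 0.000937), and scaling by library size alone ended that call (-0.27, adjusted p = 0.104). NELFA, which contacts the polymerase, had 1977, 2359 and 1908 in EV and 1558, 1694 and 1337 in PRL3. The groups did not overlap, but the step was the smallest of the complex (log2 fold change -0.44, SE 0.16, edgeR adjusted p = 0.0405).

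The NELFA call was the least firm of the lower ones. It was lost without EV B2 (-0.33, adjusted p = 0.134), without PRL3 B9 (-0.45, adjusted p = 0.109), without PRL3 B10 (-0.52, adjusted p = 0.0602) and without PRL3 B11 (-0.35, adjusted p = 0.201). Upper-quartile scaling (-0.27, adjusted p = 0.194), library size alone (0.051, adjusted p = 0.809), leaving out the low-count filter (-0.42, adjusted p = 0.0674) and protein-coding genes only (-0.26, adjusted p = 0.178) ended it too. The other NELF calls held with any 1 library left out.

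DSIF, the dimer that joins NELF at the pause and later travels with elongating polymerase, was lower in both genes. SUPT5H, its large subunit and a target of CDK9, had 7166, 7757 and 5880.4 in EV and 3698, 3940.2 and 3592 in PRL3. No PRL3 library reached the lowest EV value, and the level was 54.0% of EV (log2 fold change -0.89, SE 0.15, edgeR adjusted p = 0.000441). SUPT4H1, the small subunit, had 7086, 6969.8 and 6068 in EV and 2976, 3423 and 2862 in PRL3. It fell to 46.0% of EV without overlap of the groups (log2 fold change -1.12, SE 0.15, edgeR adjusted p = 6.64e-05); 63.7% of its exon bases are shared with another gene on the same strand, so reads there may have been counted for neither. Both calls held under every scaling and with each library left out.

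SPT6 and its partner IWS1 travel with elongating polymerase, SPT6 as a histone chaperone. SUPT6H, the SPT6 gene, ran from 7401 to 8322 in EV and 6097 to 8069 in PRL3 with PRL3 B9 inside the EV range (log2 fold change -0.22, SE 0.16, edgeR adjusted p = 0.271). IWS1 ran from 1908 to 3234 in EV and 2289 to 2548 in PRL3, with EV B1 the highest of the libraries (log2 fold change -0.0065, SE 0.19, edgeR adjusted p = 0.982). Neither passed the test in these libraries. Scaled to all uniquely aligned reads, SUPT6H passed as lower (-0.71, adjusted p = 0.00503), and by library size alone its sign turned (0.28) and IWS1 passed as higher (0.50, adjusted p = 0.0363).

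FACT, the histone chaperone that lets polymerase through nucleosomes, was lower in both subunit genes. SSRP1, which binds DNA and histones, had 30397, 28656 and 23551 in EV and 12786, 14258 and 12742 in PRL3. The EV libraries were all more than the highest PRL3 library, and PRL3 stood at 48.2% of EV (log2 fold change -1.05, SE 0.15, edgeR adjusted p = 0.000148). SUPT16H, the larger subunit, had 16890, 10499 and 10604 in EV and 7581, 7106 and 7213 in PRL3. EV B1 was far above EV B2 and B3, yet the PRL3 libraries lay close together beneath all of them (log2 fold change -0.79, SE 0.19, edgeR adjusted p = 0.00405). Library size alone ended the SUPT16H call (-0.29, adjusted p = 0.179).

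In P-TEFb, the kinase that releases the pause, the cyclin genes rose and the kinase gene did not pass the test. CCNT2, one of 2 alternative cyclin T genes (chromosome 2, 134918235 to 134959342), had 1528, 994 and 1384 in EV and 2423, 2264 and 2879 in PRL3. The lowest PRL3 library was well above the highest EV library, at 194% of EV on average (log2 fold change 0.95, SE 0.18, edgeR adjusted p = 0.00109). CCNT1, the other cyclin T and the partner used by the HIV Tat protein, had 7399.8, 4382 and 6279 in EV and 8199.5, 8944 and 8418 in PRL3. EV B2 was the lowest and EV B1 came near the PRL3 libraries without reaching them (log2 fold change 0.50, SE 0.18, edgeR adjusted p = 0.0401). CDK9 itself ran from 4546 to 6473 in EV and 4843 to 6152 in PRL3, with full overlap (log2 fold change -0.091, SE 0.17, edgeR adjusted p = 0.699; 0.39 by library size alone, 0.085 with protein-coding genes only, and -0.56, adjusted p = 0.0251 against all uniquely aligned reads).

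The CCNT1 call did not hold with 1 library left out in most cases. Without EV B2 it was 0.33, adjusted p = 0.118, without EV B3 0.53, adjusted p = 0.052, without PRL3 B9 0.54, adjusted p = 0.0756, without PRL3 B10 0.47, adjusted p = 0.107 and without PRL3 B11 0.52, adjusted p = 0.0941. CCNT2 stayed past the threshold with any 1 library removed. Against all uniquely aligned reads, neither cyclin passed (CCNT1 0.027, adjusted p = 0.93, and CCNT2 0.48, adjusted p = 0.0548).

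Of the 4 protein genes of the 7SK complex, which keeps P-TEFb inactive, only HEXIM2 passed the test. HEXIM2, the less abundant of the HEXIM inhibitors here, had 753, 994 and 889 in EV and 443, 452 and 443 in PRL3. The PRL3 libraries were nearly equal and all beneath EV, at 50.7% of its level (log2 fold change -0.98, SE 0.18, edgeR adjusted p = 0.000844). HEXIM1, its paralog, a gene of 1 exon (chromosome 17, 45148475 to 45152099), had 8121, 7861 and 6959 in EV and 7026, 8484 and 6521 in PRL3. PRL3 B10 was the highest library of all and PRL3 B11 the lowest, so the groups overlapped (log2 fold change -0.058, SE 0.15, edgeR adjusted p = 0.789). HEXIM1 turned to 0.43, adjusted p = 0.0178 by library size alone and to -0.54, adjusted p = 0.0305 against all uniquely aligned reads.

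LARP7, which binds and protects the end of 7SK, had 2639, 924 and 913 in EV and 1024, 758 and 1047 in PRL3. EV B1 alone was high, at more than the other 5 libraries, which overlapped (log2 fold change -0.66, SE 0.34, edgeR adjusted p = 0.132). Without EV B1 the LARP7 fold change was 0.038, adjusted p = 0.89, and without EV B3 it was -0.92, adjusted p = 0.0388. Against all uniquely aligned reads (-1.16, adjusted p = 0.0106) and without the low-count filter (-0.63, adjusted p = 0.00469) LARP7 passed as lower. MEPCE, the enzyme that caps 7SK, ran from 8603 to 10650 in EV and 6344 to 9346 in PRL3 and did not pass (log2 fold change -0.34, SE 0.17, edgeR adjusted p = 0.127), though it did without PRL3 B10 (-0.51, adjusted p = 0.0436) and against all uniquely aligned reads (-0.81, adjusted p = 0.00378). For MEPCE 61.3% of exon bases are shared with another gene on the same strand. RN7SK, the RNA itself, is listed at 0 in every library; its 2 identifiers overlap fully, so reads on it may have been assigned to neither.

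The super elongation complex carries P-TEFb to genes, and its members moved in both directions. AFF1, one of its scaffold proteins (chromosome 4, 86935002 to 87141039), had 1420, 1194 and 1353 in EV and 2662, 2074 and 1949 in PRL3. Each PRL3 library exceeded each EV library, with PRL3 B9 the highest (log2 fold change 0.75, SE 0.17, edgeR adjusted p = 0.00285). AFF4, the alternative scaffold, had 5541, 3789 and 4130 in EV and 5491, 4663 and 5671 in PRL3. EV B1 lay within the PRL3 range, and the gene did not pass (log2 fold change 0.23, SE 0.17, edgeR adjusted p = 0.293) except without EV B1 (0.42, adjusted p = 0.0429), under upper-quartile scaling (0.42, adjusted p = 0.0483), with protein-coding genes only (0.42, adjusted p = 0.0448) and by library size alone (0.73, adjusted p = 0.0031). Against all uniquely aligned reads AFF4 turned to -0.25.

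EAF1, a cofactor of the ELL elongation factors, had 2109, 1717 and 1698 in EV and 3306, 3500.4 and 3232 in PRL3. The groups were far apart, with PRL3 at 182% of EV (log2 fold change 0.86, SE 0.15, edgeR adjusted p = 0.000528). ELL, which raises the rate of the polymerase, had 2215, 2865 and 2449 in EV and 1761, 2629.7 and 1933 in PRL3, and PRL3 B10 lay within the EV range (log2 fold change -0.25, SE 0.18, edgeR adjusted p = 0.285). ELL2, its paralog, had 1958, 1113 and 1354 in EV and 1394, 1228 and 1597 in PRL3. The ELL2 groups overlapped, with EV holding both the highest and the lowest library (log2 fold change -0.069, SE 0.21, edgeR adjusted p = 0.817). Both ELL genes passed as lower against all uniquely aligned reads (ELL -0.73, adjusted p = 0.0086, and ELL2 -0.55, adjusted p = 0.0477) and had positive values by library size alone (0.23 and 0.43).

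MLLT1, known as ENL, reads acetylated histones for the complex and had 5843, 7713 and 5405 in EV and 2796, 3556 and 2885 in PRL3. It fell to 48.7% of EV with no overlap, EV B2 being the highest (log2 fold change -1.04, SE 0.17, edgeR adjusted p = 0.000375). MLLT3, the related AF9 gene, had 1324, 816 and 976 in EV and 1313, 1228 and 1372 in PRL3. EV B1 was level with the PRL3 libraries and the other EV libraries were lower (log2 fold change 0.33, SE 0.19, edgeR adjusted p = 0.184). Without EV B1 the MLLT3 value passed (0.54, adjusted p = 0.0169), as it did by library size alone (0.83, adjusted p = 0.00346), under upper-quartile scaling (0.52, adjusted p = 0.033) and with protein-coding genes only (0.51, adjusted p = 0.0296), while against all uniquely aligned reads its sign turned (-0.15). The calls of AFF1 and EAF1 were lost against all uniquely aligned reads, where the values were 0.27, adjusted p = 0.242 and 0.38, adjusted p = 0.094.

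**Figure D2:**
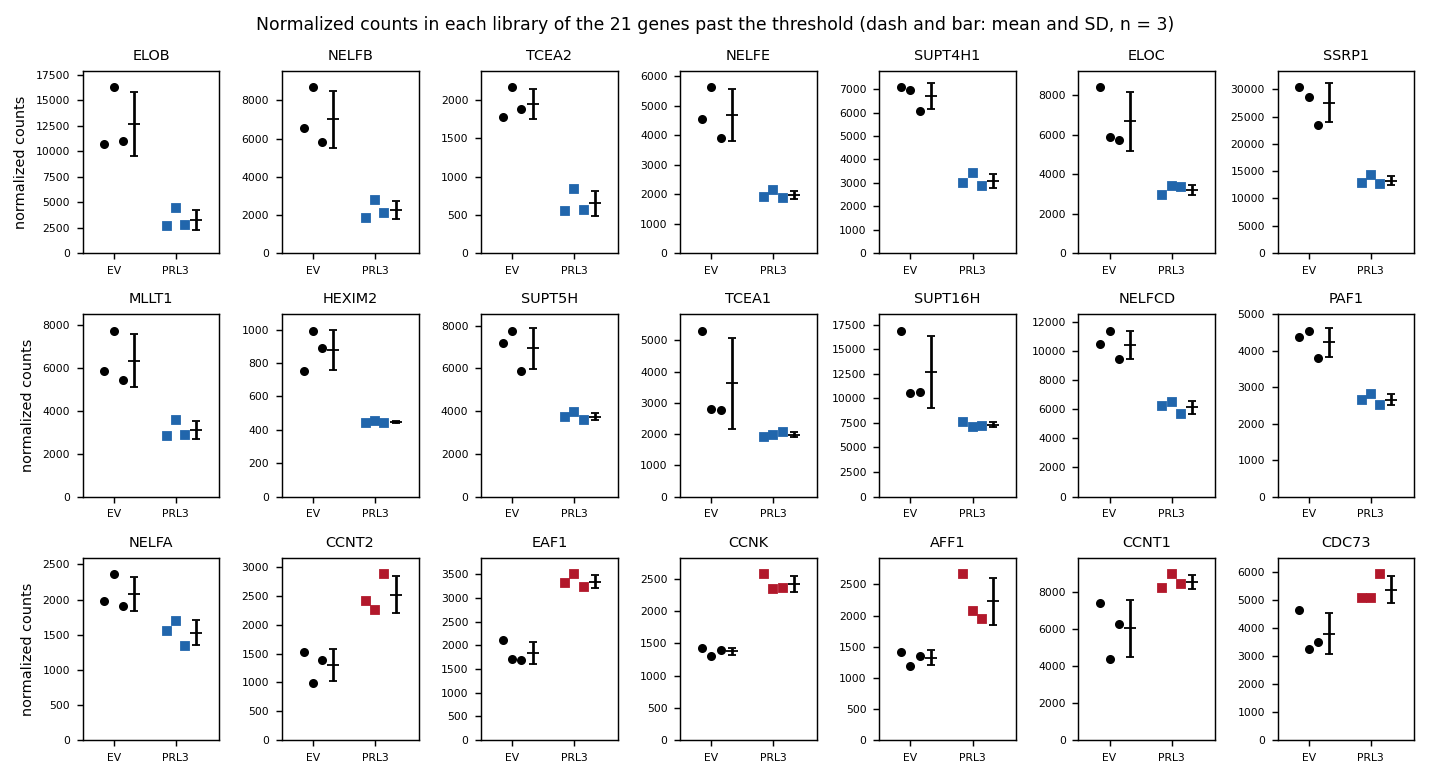
Normalized counts (vertical axis from 0, linear) in each of the 6 libraries for the 21 members past the threshold, with circles for EV, squares for PRL3 (blue lower, red higher) and the mean with its SD (n = 3) beside them. NELFB ran from 5803 or more in EV to 2767 or less in PRL3, and CCNT2 from 1528 or less to 2264 or more, a call lost against all uniquely aligned reads.

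The PAF complex, which rides on polymerase and promotes histone modification behind it, had 1 lower and 1 higher gene among 5. PAF1, its name-giving subunit, had 4367, 4553 and 3794 in EV and 2656, 2817 and 2501 in PRL3. All PRL3 values were below all EV values (log2 fold change -0.67, SE 0.15, edgeR adjusted p = 0.00237), a call ended by library size alone (-0.18, adjusted p = 0.305). CDC73, the tumor suppressor parafibromin, had 4634, 3252 and 3479 in EV and 5069, 5076 and 5904 in PRL3. Each PRL3 library was above EV B1, the highest of its group (log2 fold change 0.50, SE 0.17, edgeR adjusted p = 0.0272). CDC73 missed the threshold without EV B2 (0.41, adjusted p = 0.0843), without EV B3 (0.44, adjusted p = 0.0734), without PRL3 B9 (0.54, adjusted p = 0.0515), without PRL3 B11 (0.43, adjusted p = 0.119) and against all uniquely aligned reads (0.014, adjusted p = 0.96).

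CTR9, the scaffold of the PAF complex, ran from 1783 to 3215 in EV and 1565 to 1765 in PRL3. Its groups did not overlap, by a narrow margin, and the fit did not call it (log2 fold change -0.48, SE 0.21, edgeR adjusted p = 0.0854), although it did without EV B2 (-0.61, adjusted p = 0.0388), without EV B3 (-0.61, adjusted p = 0.0405) and without the low-count filter (-0.45, adjusted p = 0.0429). LEO1 ran from 1168 to 2832 in EV and 1907 to 2613 in PRL3, so EV held both extremes (log2 fold change 0.20, SE 0.26, edgeR adjusted p = 0.571). Leaving out EV B1 gave 0.62, adjusted p = 0.0214 for LEO1 and leaving out EV B2 gave -0.036, adjusted p = 0.919. RTF1, which links the complex to histone H2B ubiquitination, ran from 4170 to 6635 in EV and 3148 to 4347 in PRL3 (log2 fold change -0.45, SE 0.19, edgeR adjusted p = 0.0784; -0.58, adjusted p = 0.0338 without EV B3, and -0.42, adjusted p = 0.0469 without the low-count filter). CTR9 and RTF1 passed as lower against all uniquely aligned reads (-0.96, adjusted p = 0.00249, and -0.94, adjusted p = 0.00222), and by library size alone they stood at 0.027 and 0.055.

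TFIIS, which lets backtracked polymerase cut its transcript and go on, was lower in both listed genes. TCEA2 (chromosome 20, 64049836 to 64072347) had 1785, 2169 and 1888 in EV and 552, 842 and 563 in PRL3. Its PRL3 libraries were all at less than the lowest EV library, at 33.6% of EV on average (log2 fold change -1.58, SE 0.20, edgeR adjusted p = 4.28e-05). TCEA1, the widely expressed form, had 5312, 2814 and 2763 in EV and 1898, 1985 and 2060.3 in PRL3. EV B1 was well above EV B2 and B3, and the PRL3 libraries were close together beneath all EV libraries (log2 fold change -0.87, SE 0.22, edgeR adjusted p = 0.00695). The TCEA1 call was lost by library size alone (-0.37, adjusted p = 0.16), and 4 processed copies bear its name in the annotation, with which it may share reads.

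Elongin, which raises the polymerase's rate and also marks stalled polymerase for degradation, had lower levels of both small subunits. ELOB (chromosome 16, 2771414 to 2777289), which also serves the VHL ubiquitin ligase, had 10689, 16286 and 11031 in EV and 2649, 4383 and 2769 in PRL3. This was the most negative fold change of the 37 members: every PRL3 library was at less than the lowest EV library and the mean stood at 25.8% of EV (log2 fold change -1.95, SE 0.22, edgeR adjusted p = 2.64e-05). ELOC, the partner of ELOB in both complexes, had 8405, 5893 and 5741 in EV and 2921, 3382 and 3326 in PRL3. It fell to 48.1% of EV with EV B1 the highest library (log2 fold change -1.06, SE 0.17, edgeR adjusted p = 0.000325), but 34 processed copies carry its name and reads shared with them are uncertain. ELOB, LARP7 and ELL2 have 4 such copies each, SUPT4H1 has 2, and CCNT2, AFF4, ELOA and SUPT16H have 1 each. ELOA, the large subunit that stimulates elongation, ran from 5846 to 7193 in EV and 5856 to 6286 in PRL3 and did not pass (log2 fold change -0.12, SE 0.14, edgeR adjusted p = 0.534); it passed as higher by library size alone (0.38, adjusted p = 0.0311) and as lower against all uniquely aligned reads (-0.60, adjusted p = 0.0123).

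CDK12 and CDK13 phosphorylate the polymerase tail with the same cyclin, and it was the cyclin gene that rose. CCNK, encoding cyclin K (chromosome 14, 99481169 to 99535044), had 1419, 1307 and 1398 in EV and 2569, 2347 and 2356 in PRL3. The spread within each group was small and the groups were wide apart, at 176% of EV (log2 fold change 0.82, SE 0.15, edgeR adjusted p = 0.000613; 0.34, adjusted p = 0.111 against all uniquely aligned reads). CDK12 had 8043, 8402 and 8482 in EV and 10890, 9883 and 9898 in PRL3. Its PRL3 libraries were all above EV, yet the fit did not call it (log2 fold change 0.30, SE 0.14, edgeR adjusted p = 0.0982), while upper-quartile scaling (0.48, adjusted p = 0.0132), protein-coding genes only (0.48, adjusted p = 0.00887) and library size alone (0.79, adjusted p = 0.000472) did, and its sign turned against all uniquely aligned reads (-0.18). CDK13 had 4150.5, 4922 and 4941 in EV and 3965, 4515 and 3799 in PRL3, with overlap and no call (log2 fold change -0.19, SE 0.15, edgeR adjusted p = 0.326; 0.30 by library size alone and -0.66, adjusted p = 0.0055 against all uniquely aligned reads).

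Ratios of 2 members within the same library do not depend on how libraries are scaled, and 7 pairs of paralogs were compared in this way. For MLLT1 over MLLT3 the log2 ratio of counts was 2.14, 3.24 and 2.47 in EV and 1.09, 1.53 and 1.07 in PRL3. It fell in every PRL3 library relative to every EV library, a difference of -1.39, SE 0.36. HEXIM1 over HEXIM2 had 3.43, 2.98 and 2.97 in EV and 3.99, 4.23 and 3.88 in PRL3, so HEXIM1 made up more of the pair in each PRL3 library (difference 0.91, SE 0.18). CCNT1 over CCNT2 had 2.28, 2.14 and 2.18 in EV and 1.76, 1.98 and 1.55 in PRL3, which is to say that the less abundant CCNT2 gained on CCNT1 in PRL3 (difference -0.44, SE 0.13).

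AFF1 over AFF4 had -1.96, -1.67 and -1.61 in EV and -1.04, -1.17 and -1.54 in PRL3, the ratio being higher in PRL3 (difference 0.50, SE 0.19). CDK12 over CDK13 had 0.95, 0.77 and 0.78 in EV and 1.46, 1.13 and 1.38 in PRL3, again higher in PRL3 (difference 0.49, SE 0.12). In these 5 pairs the groups did not overlap and the exact permutation p was 0.1, the smallest possible for 3 against 3; groups that do not overlap were common in these libraries, at 26.6% of all tested single genes lower and 29.7% higher, and no share was computed for other pairs of genes. TCEA1 over TCEA2 had 1.57, 0.38 and 0.55 in EV and 1.78, 1.24 and 1.87 in PRL3, with EV B1 inside the PRL3 range (difference 0.80, SE 0.42, exact permutation p = 0.2). ELL over ELL2 had 0.18, 1.36 and 0.85 in EV and 0.34, 1.10 and 0.28 in PRL3, with wide overlap (difference -0.23, SE 0.43, exact permutation p = 0.7).

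Kinase over cyclin ratios, chosen after the values were seen, were compared in the same way. CDK12 over CCNK had 2.503, 2.68 and 2.60 in EV and 2.08, 2.07 and 2.07 in PRL3, a difference of -0.52, SE 0.053 with near-equal PRL3 libraries. CDK13 over CCNK had 1.55, 1.91 and 1.82 in EV and 0.63, 0.94 and 0.69 in PRL3 (difference -1.01, SE 0.15). CDK9 over CCNT2 had 1.57, 2.56 and 2.23 in EV and 1.00, 1.44 and 0.76 in PRL3 (difference -1.05, SE 0.35). In these 3 the cyclin gained on its kinase in each PRL3 library without overlap (exact permutation p = 0.1). The pairs were chosen with the higher CCNT2 and CCNK values known, so this p adds nothing to those calls. No share was computed for other pairs of genes. CDK9 over CCNT1 had -0.70, 0.42 and 0.044 in EV and -0.76, -0.54 and -0.79 in PRL3, where EV B1 lay inside the PRL3 range (difference -0.62, SE 0.34, exact permutation p = 0.2).

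**Figure D3:**
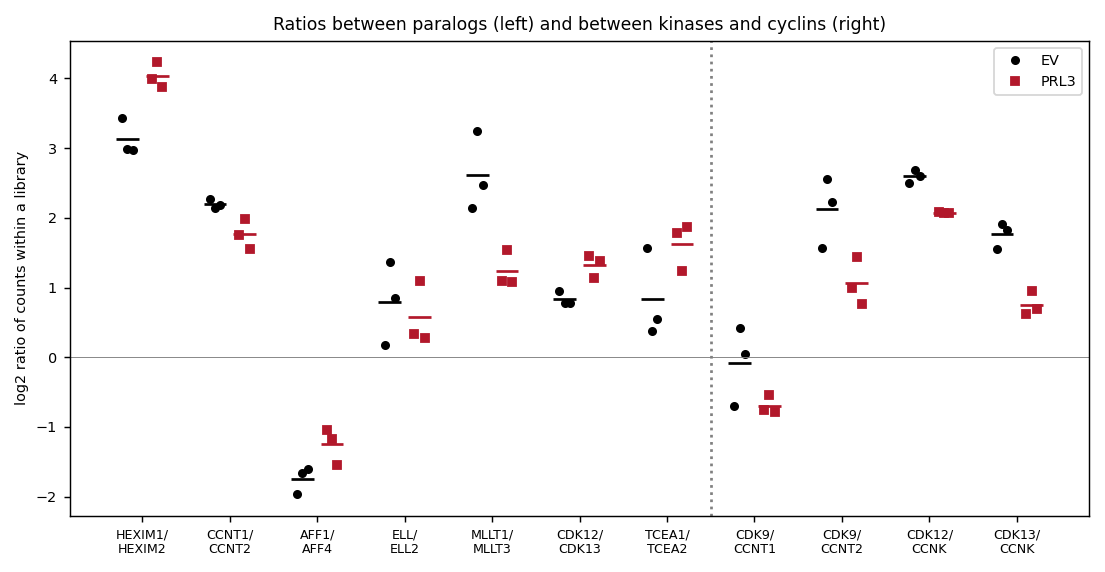
Log2 ratio of counts of 2 members within each library (vertical axis) for the paralog pairs and the kinase over cyclin pairs, with circles for EV, squares for PRL3 and a dash for each group mean. MLLT1 over MLLT3 ran from 2.14 to 3.24 in EV and from 1.07 to 1.53 in PRL3, and ELL over ELL2 overlapped between the groups.

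Levels of different genes were compared per kilobase of exon, as TPM in EV only, since the totals that TPM is formed over differ between the groups. SSRP1 had the highest value by this measure at 210.4 ± 31.3 TPM (mean ± SD, n = 3), followed by SUPT4H1 at 156 ± 15.5, MEPCE at 138 ± 8.14 and NELFB at 133 ± 23.3. The EV ranges of SUPT4H1, MEPCE and NELFB overlapped one another, while SSRP1 stood above them in every EV library. The lengths hold the shared exon bases of SUPT4H1 (63.7%) and MEPCE (61.3%), where reads may not be counted, so both levels may be too low and their order against SSRP1 is uncertain. ELOB stood at 106 ± 21.4 and HEXIM1 at 102 ± 10.3, again within their spread of each other; the exons of all ELOB transcripts merge to 5714 of the 5876 bases of the gene, a length that can also lower its TPM. At the low end were AFF1 at 5.86 ± 0.783, MLLT3 at 6.26 ± 1.86, CCNT2 at 6.98 ± 1.78 and CCNK at 8.10 ± 0.723 TPM, neighbors whose values lie within their SD. Their merged exons run from 8081 to 10953 bases, lengths that can also lower their TPM. Of these 4 low genes, AFF1, CCNT2 and CCNK were among the 6 higher members in PRL3, and MLLT3 did not pass. The share of higher calls among all genes of like level was not computed. The same EV counts enter both the level and the fold change, so nothing is read from this.

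Partners in 1 complex did not stand at equal levels in EV. These are levels in RNA enriched by the label and no rates of synthesis. The counts are of reads on exons, for which the paper named splicing during transcription and low-level mRNA carry-over as potential confounders. CDK9 had 90.3 ± 13.96 TPM, CCNT1 39.8 ± 11.8 and CCNT2 6.98 ± 1.78, each step larger than the spread. HEXIM1 exceeded HEXIM2 (21.1 ± 1.93 TPM), and MLLT1 (63.9 ± 9.85) exceeded MLLT3. Within NELF by TPM, NELFB was the highest and NELFA the lowest (19.9 ± 1.58), with NELFE (85.3 ± 13.2) and NELFCD (80.0 ± 6.19) within their spread of each other. That order rests on the merged exon lengths, 6298 bases for NELFCD against 2540 for NELFB. By normalized counts in EV, NELFCD was above NELFB (mean 10428 against 7020). CDK12 (31.0 ± 1.02) was above CDK13 (9.10 ± 0.598), whose range overlapped that of CCNK. PAF1 (71.9 ± 6.65) led its complex by TPM and CDC73 (17.5 ± 4.24) was the lowest there, with CTR9 (19.4 ± 7.68) within the spread of CDC73. By normalized counts in EV, CDC73 was above CTR9 (mean 3788 against 2289), with 10512 merged exon bases against 5770. CDK13 has 24780 merged exon bases, a length that can lower its TPM too.

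Gene length and base composition, which the list did not use, went along with the fold changes. The 9 members under 10 kb had a median of -0.98 for the log2 fold change, with 6 lower and 0 higher (all 9 values were below 0 as scaled here, at any p). The 2782 tested protein-coding genes of that length had a median of -0.64, with 48.4% lower and 8.84% higher. For 13 members of 10 to 50 kb the median was -0.66 (all protein-coding genes -0.26), and for 15 members over 50 kb it was -0.069 (protein-coding 0.069). Among short members ELOB spans 5.88 kb, NELFE 6.95 kb and PAF1 5.53 kb, whereas AFF1 spans 206 kb and CDC73 133 kb. MLLT1, at 69.6 kb, was lower although it is long, and CDK9 and HEXIM1, at 5.11 kb and 3.62 kb, did not pass although they are short.

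By GC content of the transcript, in classes set after the values were seen, the 12 members in the highest tertile of protein-coding genes (over 54.3%) had a median of -0.93 with 9 lower and 0 higher (all 12 values were below 0 as scaled here, at any p). Over the 4812 tested protein-coding genes of the same tertile the median was -0.60, with 48.7% lower and 6.05% higher. In the middle tertile 13 members had a median of -0.12 (protein-coding -0.043), and in the lowest tertile (up to 43.9%) 12 members had 0.066 (protein-coding 0.087). MLLT1 (63.5%), NELFB (63.4%) and TCEA2 (62.1%) were in the GC-rich class and lower, CCNT2 (37.01%) and CDC73 (34.3%) in the GC-poor class and higher. ELOC (38.2%) and TCEA1 (39.3%) were GC-poor and lower. Across the 37 members the fold change had Pearson's r of 0.47 and Spearman's rho of 0.48 with log gene length, and -0.56 and -0.54 with GC content; across 14443 protein-coding genes the values were 0.28 and 0.30, and -0.33 and -0.34. These points are genes of the same 6 libraries and no independent replicates, and length and GC content were themselves related among members (r -0.45).

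**Figure D4:**
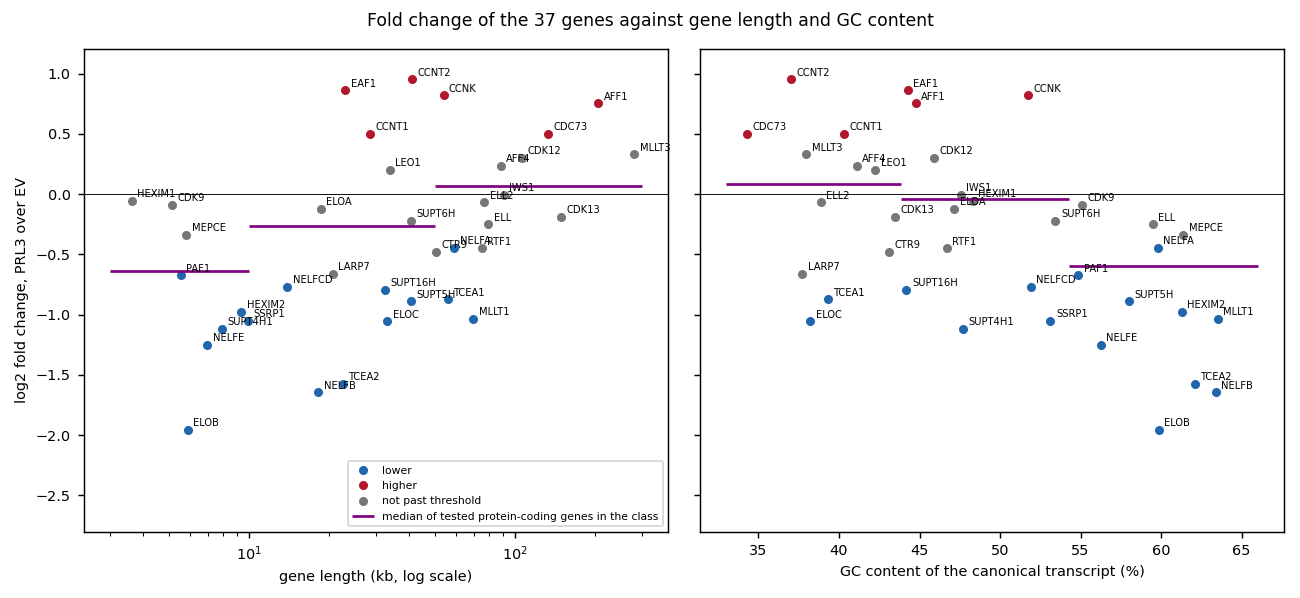
Log2 fold change (PRL3 over EV, vertical axis) of each member against gene length in kb (log axis) and against GC content of the transcript in percent, colored by call (blue lower, red higher, gray not past the threshold), with purple lines for the median of protein-coding genes in each class. Members under 10 kb had a median of -0.98 and those over 50 kb of -0.069.

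How many members were called in each direction depended on the scaling. Under library size alone 10 were lower and 13 higher with an all-gene median of 0.60, and against all uniquely aligned reads 26 were lower and 0 higher by edgeR (27 and 2 at an unadjusted p of 0.05) with an all-gene median of -0.36. With upper-quartile scaling or with protein-coding genes only, 14 were lower and 9 higher. Scaling shifts the members and the all-gene median together, so the 27 members below that median as scaled here say nothing of stability; where the genes tested or the libraries changed, the number was 22 with protein-coding genes only, 25 without EV B1 and 28 by DESeq2. NELFB, NELFE, SUPT4H1, SUPT5H, SSRP1, HEXIM2, MLLT1, TCEA2, ELOB and ELOC were lower past the threshold in every alternative and with any 1 library left out. None of the 6 higher calls held in all alternatives, since all 6 were lost against all uniquely aligned reads.

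**Figure D5:**
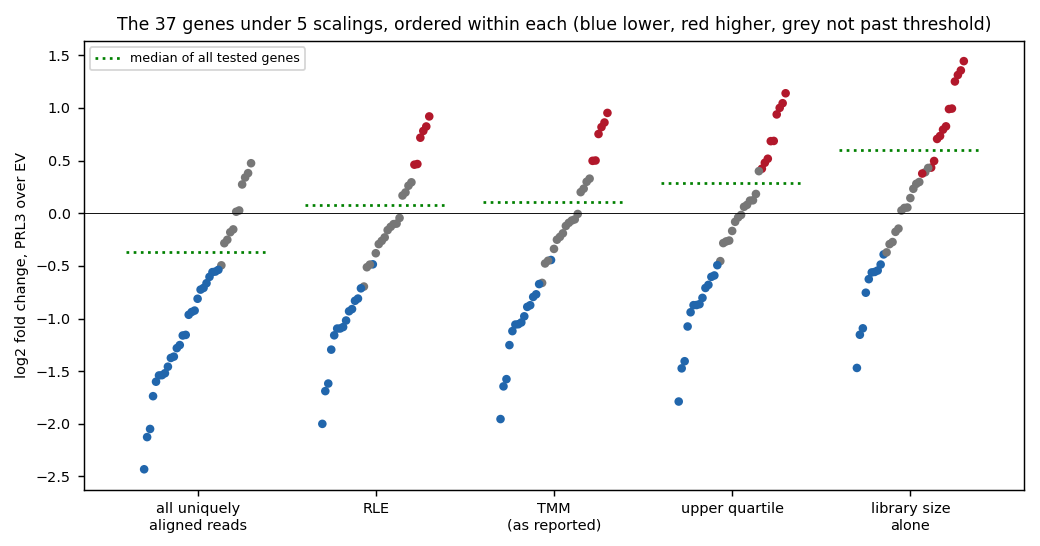
Log2 fold change (PRL3 over EV, vertical axis) of each of the 37 members, in rising order within each of 5 ways of scaling the libraries (blue lower, red higher, gray not past the threshold), with the median of all tested genes as a dotted line. The members and the dotted line shift together by construction, and the counts called ran from 10 lower and 13 higher to 26 lower and 0 higher by edgeR.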

How the data were processed

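Total counts per gene were deposited for 6 libraries; per the labels and methods, the authors aligned 150-base reads to GRCh38 with STAR and counted reads on the reverse strand with htseq-count on Ensembl release 91 genes, and the submitters' processing notes name FastQC 0.11.3, STAR 2.5.1b and HTSeq 0.6.1. Entries that name no gene (28.7% to 69.1% of uniquely aligned reads on no exon, 1.67% to 5.01% ambiguous) stayed out of library sizes. Symbols, lengths and coordinates came from GENCODE 44 on the same build, where 57532 of 58243 identifiers matched.

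Counts were tested with edgeR 4.0.16 (quasi-likelihood, TMM, filterByExpr, R 4.3.3), with p-values adjusted by Benjamini and Hochberg over 23884 genes at 0.05. The SE of a fold change was worked back from the test, as its absolute value over the square root of the F statistic. The SE of a ratio difference came from the spread between libraries. The study itself used DESeq2. Alternatives were DESeq2 1.42.0, RLE and upper-quartile factors, library size alone, all uniquely aligned reads, no filter, protein-coding genes only, and each library left out. The code was tested on simulated data with few genes changed, as many up as down. That test does not bear on the choice of scaling. All members are named, with values by library for those past the threshold or in a paralog pair. Of other lists the 3 genes of smallest p are named, and beside them TCEA3, INTS6 and INTS7. Members and lists were chosen with earlier results of these data known; GC classes and kinase over cyclin ratios were added after the values were seen. Promoters were matched by symbol for 33 of 37 members. Every pair of libraries differed beyond sampling noise, with a chi-square averaging 24.9 or more over genes. Depth was 36532207 to 57952035 counts.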

Additional observations from a re-analysis of the deposited data

Results flagged for a closer look

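Reads that align uniquely but fall outside annotated exons on the counted strand belong to no gene's count and enter the comparisons only through library size, in the alternative that scales to all uniquely aligned reads. They made up 66.3% ± 3.18 (SD, n = 3) of uniquely aligned reads in PRL3 and 33.3% ± 6.75 (SD, n = 3) in the EV control, with no overlap (62.8% to 69.1% against 28.7% to 41.1%). A signal above the control level in data outside the gene counts is what set this apart. The difference could not pass 0.05 by the exact permutation test, whose smallest p with 3 against 3 is 0.1.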

How the results depend on the processing

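At 36532207 to 57952035 counts a library all 37 members passed the filter on low counts, and their precision rested on 3 libraries a group. No paired analysis was possible because the groups share no replicate numbers. For every change listed next, the cause was not tested.

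Upper-quartile scaling moved the member median to -0.17, the other elongation genes to 2 lower and 9 higher, and turned fold changes to these values: IWS1 0.18, CDK9 0.080, HEXIM1 0.12, ELL2 0.12, ELOA 0.061. Library size alone gave 3078 lower and 9514 higher genes in all, against 5426 and 4783; members stood at 13 higher with a median of 0.14, other elongation genes at 2 lower and 12 higher, and Integrator genes at 3 lower, and it turned fold changes to NELFA 0.051, SUPT6H 0.28, IWS1 0.50, CDK9 0.39, HEXIM1 0.43, MEPCE 0.14, ELL 0.23, ELL2 0.43, CTR9 0.027, RTF1 0.055, ELOA 0.38, CDK13 0.30. All uniquely aligned reads gave 8473 lower and 1952 higher genes; members stood at 26 lower, 0 higher and a median of -0.81, other elongation genes at 12 and 0, Integrator genes at 12 and 0, and it turned fold changes to AFF4 -0.25, MLLT3 -0.15, LEO1 -0.28, CDK12 -0.18. At an unadjusted p of 0.05 edgeR there had 2 members, 0 other elongation genes and 1 Integrator gene higher, and DESeq2 with its own factors called 6 members higher. Integrator genes had 8 lower under RLE scaling and under DESeq2. Protein-coding genes only gave a member median of -0.16, other elongation genes 2 lower and 9 higher, and turned fold changes to these values: IWS1 0.18, CDK9 0.085, HEXIM1 0.12, ELL2 0.12, ELOA 0.062. Without the filter IWS1 turned to 0.022.

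With 1 library left out, members ran from 14 to 18 lower and 4 to 9 higher, other elongation genes from 2 to 4 lower and 2 to 6 higher, and Integrator genes from 4 to 7 lower and 1 to 2 higher. Fold changes that turned in such a fit ranged from -0.16 to 0.25 for IWS1, from -0.92 to 0.038 for LARP7, from -0.22 to 0.19 for ELL2, from -0.036 to 0.62 for LEO1, from -0.22 to 0.0090 for CDK9 and from -0.17 to 0.030 for HEXIM1, and the ELL over ELL2 difference from -0.54 to 0.054. Among the fold changes of single members, 195 values kept direction and side of the threshold under the alternatives, while 24 newly passed it, 13 no longer did and 27 turned; with a library left out the numbers were 193, 8, 13 and 8. The median TPM over members depended on the denominator: 34.2 in EV and 38.1 in PRL3 over all genes, 48.9 and 70.7 over protein-coding genes.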

Other observations

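Other genes of elongation control, outside the 37 members, were called in both directions. Of 27 such genes 25 were tested, with 4 lower and 5 higher in PRL3. Their median log2 fold change was -0.0010, beside 0.11 over all tested genes and -0.15 over protein-coding ones. The shares were 16.0% lower and 20.0% higher. They stood against 22.7% and 20.0% of all tested genes, and 31.6% and 15.2% of tested protein-coding genes. PPM1G, a phosphatase that frees P-TEFb from 7SK, fell (log2 fold change -0.99, SE 0.15, edgeR adjusted p = 0.000168). CDK7, the kinase of TFIIH, fell as well (log2 fold change -1.10, SE 0.21, edgeR adjusted p = 0.000886). PCF11, which acts in cleavage and termination, rose (log2 fold change 0.77, SE 0.16, edgeR adjusted p = 0.00198). The higher count was 2 without EV B2 or without PRL3 B11 and 3 without PRL3 B9, and the lower count was 2 without PRL3 B9 or without PRL3 B11.

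Integrator cuts nascent RNA at paused polymerase and ends transcription there. All 14 of its genes listed here were tested, with 5 lower and 2 higher. Their median was -0.35, beside 0.11 over all tested genes and -0.15 over protein-coding ones. These shares of 35.7% and 14.3% were near the 31.6% and 15.2% of tested protein-coding genes. Over all tested genes the shares were 22.7% and 20.0%. INTS11, the endonuclease, fell (log2 fold change -1.39, SE 0.16, edgeR adjusted p = 2.55e-05), as did INTS5 (log2 fold change -1.01, SE 0.16, edgeR adjusted p = 0.000294) and INTS1 (log2 fold change -1.05, SE 0.18, edgeR adjusted p = 0.000559). The higher genes were INTS6 (log2 fold change 0.85, SE 0.16, edgeR adjusted p = 0.000864) and INTS7 (log2 fold change 0.46, SE 0.14, edgeR adjusted p = 0.0174), named after their values were seen. Without PRL3 B10 or without PRL3 B11, 1 Integrator gene was higher.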
